A study of Triticum aestivum with 23 samples.

Results

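*FACKEL* and *DWF7* encode enzymes that make the sterol precursors of the brassinosteroids (BRs), the plant steroid hormones perceived by the receptor BRI1. The genes described here are the 6 whose names begin with *TaFACKEL* or *TaDWF7* in the list of BR pathway genes that accompanies the study, taken by their IWGSC RefSeq v2.1 identifiers, out of 266760 genes in the expression table. They are the A, B and D homoeologues, the copies in the 3 subgenomes of bread wheat, of *TaFACKEL1* and of *TaDWF7*. By their identifiers, *TaFACKEL1-A* (TraesCS1A03G1015700), *TaFACKEL1-B* (TraesCS1B03G1197500) and *TaFACKEL1-D* (TraesCS1D03G0976100) lie on the group 1 chromosomes, and *TaDWF7-A* (TraesCS3A03G0076800), *TaDWF7-B* (TraesCS3B03G0104500) and *TaDWF7-D* (TraesCS3D03G0075300) on the group 3 chromosomes. Positions, gene models and sequences for these identifiers were not analysed here.

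In Arabidopsis, where these enzymes were characterised, FACKEL is the sterol C-14 reductase and acts early in the route to campesterol, the sterol from which BRs are made. HYD1, a sterol isomerase, acts after it, and DWF7, the sterol C-5 desaturase, DWF5, the sterol delta-7 reductase, and DWF1, the sterol C-24 reductase, follow in this order. Loss of FACKEL or HYD1 disturbs embryo patterning, whereas loss of DWF7, DWF5 or DWF1 gives BR-deficient dwarfs.

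RNA was sequenced from the whole shoot of seedlings at leaf stage 2, grown at a constant 21 °C under a 24 h photoperiod, in 23 libraries of 6 genotypes. The triple mutant *tabri1-a.1bd* (n = 3) carries premature stop codons in all 3 *TaBRI1* homoeologues, whereas *tabri1-a.2bd* (n = 4) and *tabri1-a.3bd* (n = 4) combine the same B and D stop alleles with an amino acid substitution in *TaBRI1-A*. The double mutant *tabri1-bd* (n = 4) carries the B and D stop alleles alone. Cadenza (n = 4) is the unmutated cultivar, and the null segregant *TaBRI1-NS* (n = 4), with no *tabri1* mutant allele, is the wild-type sister line of *tabri1-a.1bd* and *tabri1-bd*. The stop alleles came from a chemically mutagenised Cadenza population and were backcrossed to Cadenza, while the *tabri1-a.2* and *tabri1-a.3* alleles came from a second mutagenesis of *tabri1-bd*, each in 1 line, so other mutations of that treatment cannot be told apart from the allele. The RNA came from the tissues collected for BR profiling, in which several plants were pooled per replicate, and the replicates are treated here as separate samples of a genotype.

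Expression is given in TPM, a read count scaled by gene length and by the library's total. The TPM values of a library step by whole reads, so the reads behind them could be recovered: the libraries hold between 22610853 and 38452115 reads. Changes are differences of log2(TPM + 0.5) from a limma model of all 23 libraries and 83495 genes with at least 0.5 TPM in at least 3 libraries, and a gene is called where its p, adjusted by Benjamini-Hochberg over all genes tested, is 0.05 or less. All 6 genes passed this filter. Within genotypes the libraries correlated at r = 0.946 or higher, except in *tabri1-a.1bd*, where r was between 0.844 and 0.95 and replicate 1 stood farthest from the other replicates. Transcript levels of the *TaBRI1* homoeologues overlapped between the 15 mutant libraries and *TaBRI1-NS*. *TaBRI1-A* lay between 4.51 and 7.61 TPM in the mutant libraries, against 3.90 to 4.89 TPM in *TaBRI1-NS*. The ranges were 3.95 to 8.53 against 3.30 to 4.52 TPM for *TaBRI1-B* and 6.22 to 13.9 against 5.73 to 7.84 TPM for *TaBRI1-D*.

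*tabri1-a.1bd* replicate 1 bears on every one of the 6 genes. All 6 were lower in it than in replicates 2 and 3, as were 46.2% of the genes tested, and 4 of the 6 had their lowest value of all 23 libraries there, as did 23.5% of the genes tested. The ratio of replicate 1 to the mean of replicates 2 and 3 was between 0.285 (*TaFACKEL1-A*) and 0.725 (*TaDWF7-B*). Log2 changes and counts of calls for *tabri1-a.1bd* are therefore given with and without this library, and the reason for its distance was not tested.

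*TaDWF7-D* was the one gene of the 6 called as varying between genotypes, where 46% of the genes tested were called, and it was lowest in *tabri1-a.1bd*. It is also the most abundant of the 6, with a median of 55.1 TPM over all libraries and between 454 and 1898 reads per library. In *tabri1-a.1bd* its level was 14.7, 32.8 and 36.2 TPM, against 54.6, 58.8, 55.8 and 56.9 TPM in *TaBRI1-NS*. Every *tabri1-a.1bd* library lay below every library of the other 5 genotypes. Of the genes tested, 16.9% had all *tabri1-a.1bd* libraries below all *TaBRI1-NS* libraries. The *tabri1-a.2bd* libraries had 47.0, 42.1, 47.0 and 40.4 TPM and also lay below all libraries of every other genotype but *tabri1-a.1bd*. Of the genes tested, all *tabri1-a.2bd* libraries were lower than *TaBRI1-NS* in 6.37%, *tabri1-a.3bd* in 5.91%, *tabri1-bd* in 7.48% and Cadenza in 9.49%. Shares below several genotypes at once were not computed for either mutant. *TaDWF7-D* reached 55.0, 55.1, 50.1 and 51.5 TPM in *tabri1-a.3bd*, with 58.3, 58.3, 67.0 and 67.3 TPM in *tabri1-bd*, and 60.7, 57.4, 59.3 and 57.2 TPM in Cadenza. The *tabri1-a.3bd* and *tabri1-bd* libraries overlapped those of *TaBRI1-NS*.

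**Figure D1:**
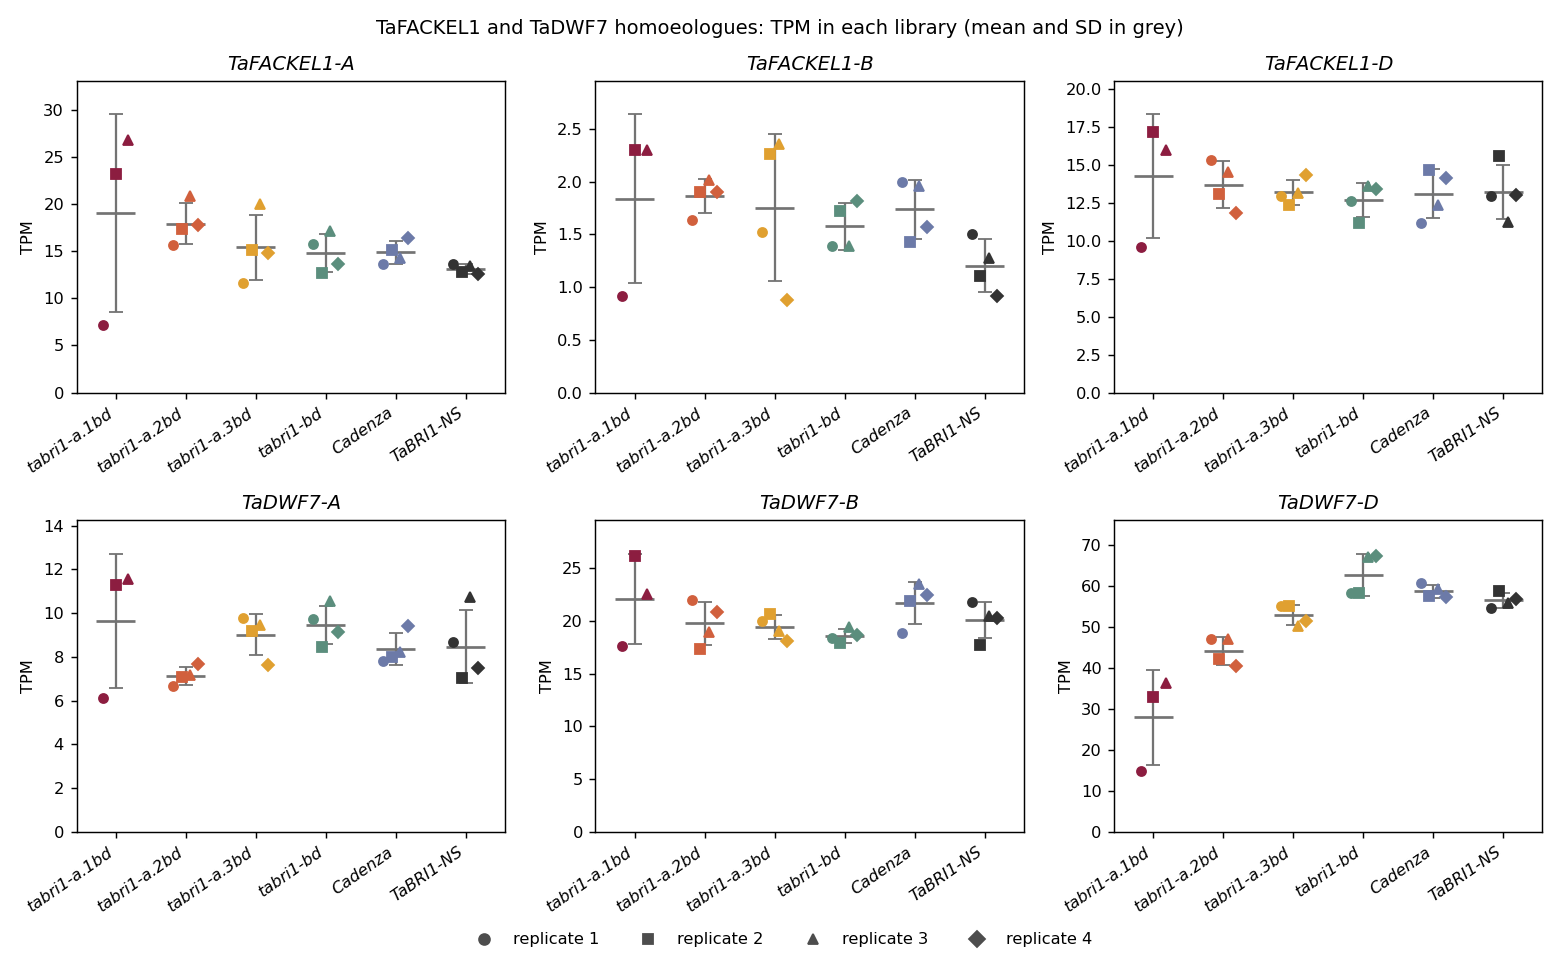
TPM (vertical axis, from 0) of each *TaFACKEL1* and *TaDWF7* homoeologue in every library of the 6 genotypes (horizontal axis). Symbols are libraries by replicate number and grey lines the mean ± SD. *TaDWF7-D* has its lowest values in *tabri1-a.1bd* (14.7 to 36.2 TPM), and *tabri1-a.1bd* replicate 1 is the lowest library of its genotype for all 6 genes.

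*TaDWF7-D* was 2.15-fold lower in *tabri1-a.1bd* than in *TaBRI1-NS* on the log2(TPM + 0.5) scale (27.9 ± 11.5 TPM, SD, n = 3, against 56.5 ± 1.78 TPM, SD, n = 4). The log2 change was -1.10 (SE 0.18, 95% confidence interval -1.49 to -0.72, limma adjusted p = 5.2e-05). Without *tabri1-a.1bd* replicate 1 the fall was smaller and still called, with a log2 change of -0.70 (SE 0.08, limma adjusted p = 6e-07). Against Cadenza the log2 change was -1.16 (limma adjusted p = 3.1e-05), and *TaDWF7-D* was the only 1 of the 6 genes called, with 38% of the genes tested. Leaving out that library gave -0.76 for *TaDWF7-D* (limma adjusted p = 2.1e-07), with 3 of the 6 genes and 35.5% of the genes tested called, the others being *TaFACKEL1-A* (0.73) and *TaDWF7-A* (0.43), both higher. As the tissue is a whole shoot, fewer cells that express the gene and less RNA per cell cannot be told apart.

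*TaDWF7-D* was the only 1 of the 6 genes called between *tabri1-a.1bd* and *TaBRI1-NS*, in a comparison that called 43.8% of all genes tested, and 19.3% as lower. The median log2 change of the 6 genes was 0.13, beside 0.10 over all genes tested. Without *tabri1-a.1bd* replicate 1, 5 of the 6 genes were called, 1 lower (*TaDWF7-D*) and 4 higher, where 41.3% of all genes were called. The 4 were *TaFACKEL1-A*, *TaFACKEL1-B*, *TaDWF7-A* and *TaDWF7-B*, so the number of calls among the 6 genes and the size of the fall of *TaDWF7-D* depend on that library, while the call of *TaDWF7-D* was kept without it.

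In the substitution mutant *tabri1-a.2bd*, *TaDWF7-D* averaged 44.1 ± 3.39 TPM, against 56.5 ± 1.78 TPM in *TaBRI1-NS* (SD, n = 4 each). The log2 change was -0.36 (SE 0.17, 95% confidence interval -0.71 to -0.0026) and was not called (limma adjusted p = 0.22), although the libraries of the genotypes did not overlap, as in 6.37% of the genes tested on the lower side. The spread that the fit shares between genotypes includes that of *tabri1-a.1bd*. When replicate 1 of *tabri1-a.1bd* was left out, the same change was called (SE 0.07, limma adjusted p = 0.0012, 14% of all genes called). It was also called in a fit of *tabri1-a.2bd* and *TaBRI1-NS* alone (limma adjusted p = 0.02, 7.98% of all genes called). Limma's array weights, which give libraries far from their genotype less weight, called it too (limma adjusted p = 0.006, 14.4% of all genes called). These were the only 3 of 31 refits to call it, and the limma adjusted p reached 0.38 over the 31. The estimate of the array weights stopped at its iteration limit with a warning, and the values were used as given. By these weights *tabri1-a.1bd* replicate 2 (0.063) stood lower than replicate 1 (0.079), and replicate 3 had 0.438.

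No gene of the 6 was called between *tabri1-a.2bd* and *TaBRI1-NS* with all libraries, where 7.46% of the genes tested were called, and 2 had an unadjusted p under 0.05 in limma. With voom, the form of limma for counts, on the recovered reads 0 of the 6 were called. *TaDWF7-D* and *TaFACKEL1-A* were both called without *tabri1-a.1bd* replicate 1 (14% of all genes called) and in the fit of these genotypes alone (7.98% of all genes called).

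*TaDWF7-D* did not differ beyond the spread between *tabri1-a.3bd* and *TaBRI1-NS* (log2 change -0.09, 95% confidence interval -0.45 to 0.26, limma adjusted p = 0.85). The log2 change for *tabri1-bd* against *TaBRI1-NS* was 0.15 (95% confidence interval -0.21 to 0.50, limma adjusted p = 1). For Cadenza against *TaBRI1-NS* it was 0.05 (95% confidence interval -0.30 to 0.41, limma adjusted p = 0.95). None of the 6 genes was called in these comparisons, in which 2.3%, 0.126% and 2.23% of the genes tested were called. Under an unadjusted p of 0.05, 0 of the 6 passed in limma in any of the 3, and 0 were called with voom.

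**Figure D2:**
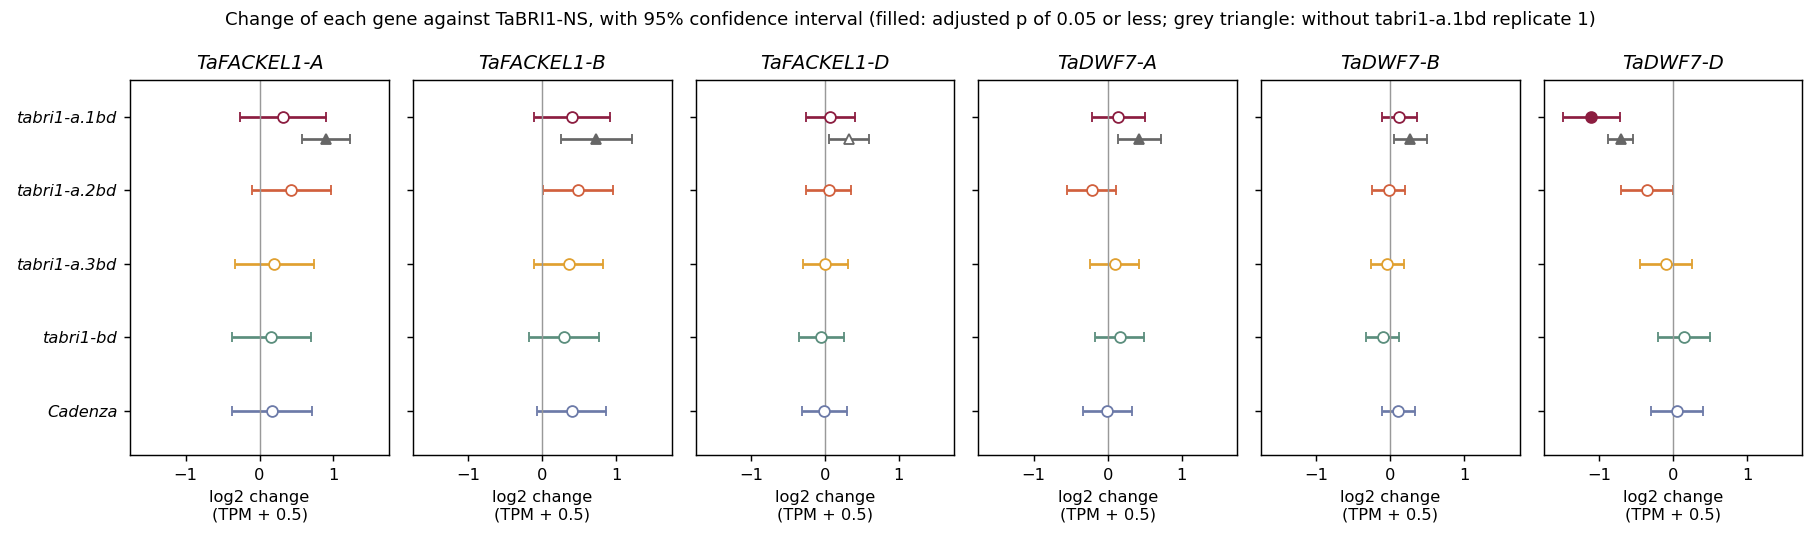
Difference of log2(TPM + 0.5) between each genotype (rows) and *TaBRI1-NS* for the 6 genes (panels), with 95% confidence intervals from limma. Filled symbols have an adjusted p of 0.05 or less, and grey triangles give *tabri1-a.1bd* with its replicate 1 left out. *TaDWF7-D* in *tabri1-a.1bd* lies at -1.10 with all libraries and at -0.70 without that library.

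Between the triple mutants, *TaDWF7-D* was lower in *tabri1-a.1bd* than in *tabri1-a.2bd* (log2 change -0.75, SE 0.18, limma adjusted p = 0.0026), in a comparison that called 39.6% of the genes tested. The change was -0.35 without *tabri1-a.1bd* replicate 1 (limma adjusted p = 0.002, 33.9% of the genes tested called), with 4 of the 6 genes called in place of 1, and the call was lost in a fit of these genotypes alone (limma adjusted p = 0.11) and with array weights (limma adjusted p = 0.092). The fit of these genotypes alone called 18913 of the 83495 genes tested, and array weights called 10800. *TaDWF7-D* was also lower in *tabri1-a.1bd* than in *tabri1-a.3bd* (log2 change -1.01, SE 0.18, limma adjusted p = 0.00015, with 40% of the genes tested called). That change was -0.61 without *tabri1-a.1bd* replicate 1 (limma adjusted p = 4.1e-06, 36.4% of the genes tested called), with 3 of the 6 genes called in place of 1. Between *tabri1-a.2bd* and *tabri1-a.3bd* the libraries of *TaDWF7-D* did not overlap, as in 5.91% of the genes tested on the lower side, but the log2 change of -0.26 was not called with all libraries (limma adjusted p = 0.53, 2.62% of the genes tested called). It was called without *tabri1-a.1bd* replicate 1 (limma adjusted p = 0.023, 5.54% of the genes tested called).

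From the lowest mean to the highest, *TaDWF7-D* was ordered *tabri1-a.1bd* (27.9 TPM), *tabri1-a.2bd* (44.1 TPM), *tabri1-a.3bd* (52.9 TPM), *TaBRI1-NS* (56.5 TPM), Cadenza (58.7 TPM) and *tabri1-bd* (62.7 TPM). Of the neighbours in this order, only *tabri1-a.1bd* and *tabri1-a.2bd* differed at the threshold with all libraries. Over all 6 genotypes, *TaDWF7-D* was the only 1 of the 6 genes that varied (limma F = 12.1, adjusted p = 0.00011), and 46% of the genes tested varied. In an F test of the 5 genotypes other than *tabri1-a.1bd*, added after seeing the data, it was again the only 1 called (F = 17.9, limma adjusted p = 0.0002), where 21.1% of the genes tested were called.

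The other *DWF7* homoeologues were not called as lower where *TaDWF7-D* was. *TaDWF7-A* had 6.10, 11.3 and 11.5 TPM in *tabri1-a.1bd*, against 8.66, 7.01, 10.7 and 7.47 TPM in *TaBRI1-NS*. *TaDWF7-B* had 17.7, 26.2 and 22.6 TPM in *tabri1-a.1bd*, against 21.8, 17.8, 20.5 and 20.3 TPM in *TaBRI1-NS*. For both genes the libraries of the genotypes overlapped. The log2 change was 0.14 for *TaDWF7-A* (95% confidence interval -0.21 to 0.50, limma adjusted p = 0.53) and 0.12 for *TaDWF7-B* (95% confidence interval -0.12 to 0.36, limma adjusted p = 0.42). Without *tabri1-a.1bd* replicate 1 both were called as higher, *TaDWF7-A* by 0.43 (limma adjusted p = 0.018) and *TaDWF7-B* by 0.27 (limma adjusted p = 0.047) on the log2 scale.

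In the other genotypes *TaDWF7-A* ranged from 6.66 to 7.66 TPM in *tabri1-a.2bd*, 7.65 to 9.80 TPM in *tabri1-a.3bd*, 8.45 to 10.5 TPM in *tabri1-bd* and 7.79 to 9.40 TPM in Cadenza. The *tabri1-a.2bd* libraries thus lay below those of *tabri1-bd*, as in 7.48% of the genes tested, and of Cadenza, as in 9.49%, and overlapped those of *TaBRI1-NS* (log2 change against *TaBRI1-NS* -0.22, limma adjusted p = 0.46). *TaDWF7-A* was called as higher in *tabri1-a.1bd* than in *tabri1-a.2bd* without replicate 1 of the first (log2 change 0.64, limma adjusted p = 0.001, against 0.36 and limma adjusted p = 0.1 with it). *TaDWF7-B* was the steadiest of the 6 genes, with its highest value 1.51 times its lowest over all 23 libraries. Neither gene varied over the 6 genotypes at the threshold (limma F test, adjusted p = 0.31 for *TaDWF7-A* and 0.4 for *TaDWF7-B*).

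The sum of the 3 *TaDWF7* homoeologues followed *TaDWF7-D*. It was 38.5 to 70.3 TPM in *tabri1-a.1bd* and 66.6 to 75.6 TPM in *tabri1-a.2bd*, against 83.6 to 87.0 TPM in *TaBRI1-NS*. *TaDWF7-D* supplied 38.3 to 51.5% of this sum in *tabri1-a.1bd*, against 64.1 to 70.4% in *TaBRI1-NS*, and 58.6 to 70.7% over the 20 libraries other than *tabri1-a.1bd*. The share of *TaDWF7-B* was 32.1 to 45.9% in *tabri1-a.1bd*, against 21.2 to 25.6% in *TaBRI1-NS*. How reads that match more than 1 homoeologue were counted is not given in the sources used here, so reads could have been split between homoeologues or left out.

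**Figure D3:**
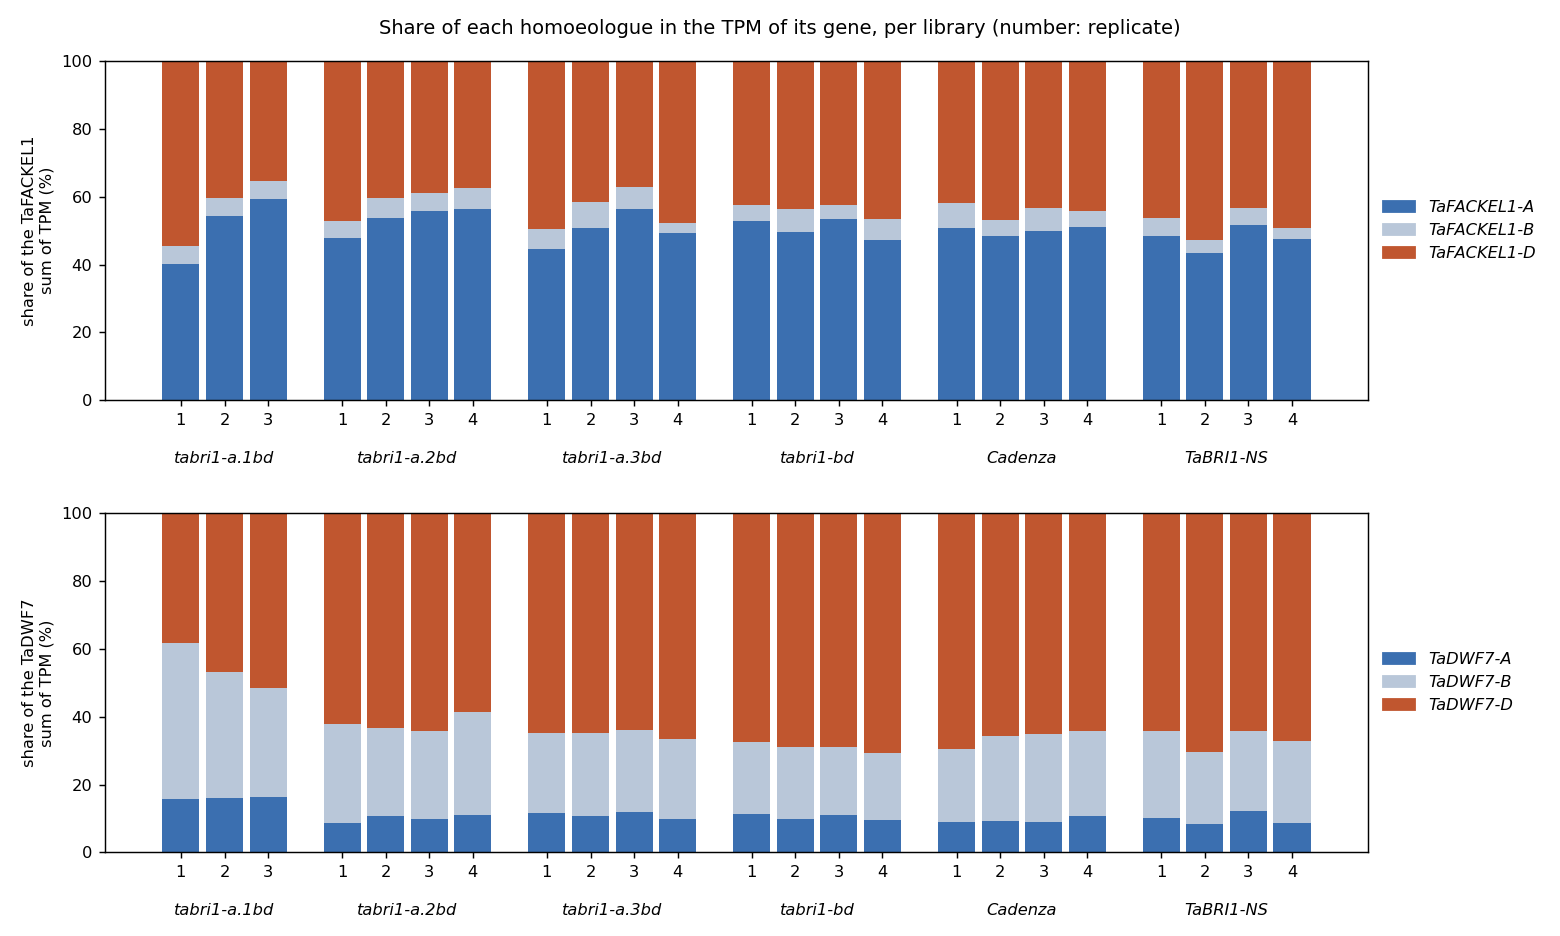
Share (%) of the A, B and D homoeologues in the summed TPM of *TaFACKEL1* (top) and *TaDWF7* (bottom) in each of the 23 libraries, grouped by genotype with the replicate number under each bar. *TaDWF7-D* makes up 38.3 to 51.5% of the sum in *tabri1-a.1bd*, against 64.1 to 70.4% in *TaBRI1-NS*.

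The ratio of homoeologues within a library does not depend on the scaling between libraries. *TaDWF7-D* was 2.42 to 3.14 times the level of *TaDWF7-A* in *tabri1-a.1bd*, against 5.20 to 8.38 times in the 8 libraries of the unmutated genotypes, Cadenza and *TaBRI1-NS*. It was 0.835 to 1.60 times the level of *TaDWF7-B* in *tabri1-a.1bd*, against 2.51 to 3.31 times in the unmutated libraries. All 3 *tabri1-a.1bd* libraries, replicate 1 included, lay below all 8 unmutated libraries in both ratios. Both ratios hold the same *TaDWF7-D* values, so they are not separate results. The share of homoeologue pairs outside *TaFACKEL1* and *TaDWF7* that separate in this way in a mutant was not computed. On the log2(TPM + 0.5) scale the ratio of *TaDWF7-D* to *TaDWF7-A* differed by -1.28 and that of *TaDWF7-D* to *TaDWF7-B* by -1.199. Each has p = 0.012 in the exact two-sided permutation test, the smallest that 3 against 8 libraries can give, and an adjusted p of 0.073 over the 24 tests of 6 ratios in 4 mutants, which misses the threshold. Without replicate 1 the differences were -1.16 and -0.95.

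In *tabri1-a.2bd*, *TaDWF7-D* was 1.93 to 2.48 times the level of *TaDWF7-B*, again below all 8 unmutated libraries (log2 difference -0.31, exact permutation p = 0.004, the smallest possible, adjusted p = 0.073). In *tabri1-bd* the same ratio was 3.17 to 3.60, overlapping the unmutated libraries, and its log2 value differed by 0.28 in the other direction (exact permutation p = 0.02, adjusted p = 0.097). The ratio of *TaDWF7-B* to *TaDWF7-A* in *tabri1-bd* was 1.85 to 2.11, against 1.91 to 2.86 in the unmutated libraries (log2 difference -0.33, exact permutation p = 0.012, adjusted p = 0.073). None of the 24 ratios passed the adjusted threshold with all libraries, and 6 had an unadjusted p under 0.05. Against *TaBRI1-NS* alone, 1 of the 24 had an unadjusted exact permutation p under 0.05, *TaDWF7-D* to *TaDWF7-B* in *tabri1-a.2bd* (log2 difference -0.33, p = 0.029), and the lowest adjusted p was 0.29. There the smallest p that *tabri1-a.1bd* can reach is 0.057. Without *TaBRI1-NS* replicate 3, 3 of the 24 passed, each with an exact permutation adjusted p of 0.048. They were *TaDWF7-D* to *TaDWF7-B* in *tabri1-a.2bd* (log2 difference -0.31) and *TaDWF7-B* to *TaDWF7-A* in *tabri1-a.3bd* (-0.25) and *tabri1-bd* (-0.38).

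**Figure D4:**
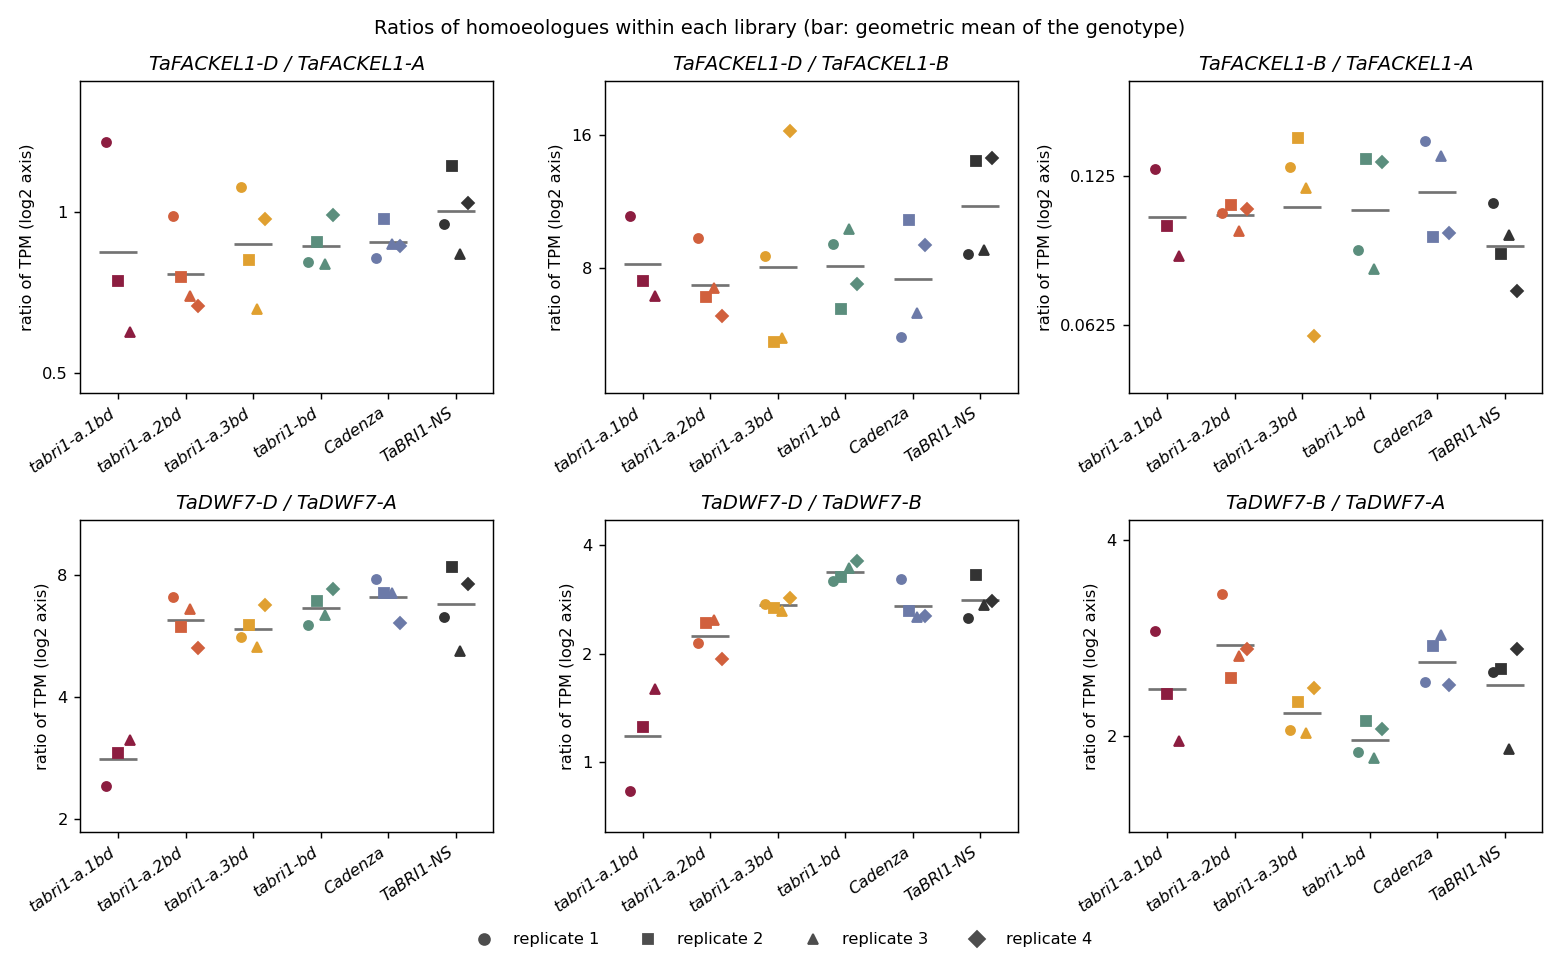
Ratio of TPM between homoeologues (vertical axis, log2 scale) within each library of the 6 genotypes, with *TaFACKEL1* in the top row and *TaDWF7* in the bottom row. Symbols are libraries by replicate number and bars geometric means. *TaDWF7-D* to *TaDWF7-A* is 2.42 to 3.14 in *tabri1-a.1bd*, against 5.20 to 8.38 in Cadenza and *TaBRI1-NS*.

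*TaFACKEL1-A*, which encodes an A-subgenome copy of the C-14 reductase, was called in no comparison with all libraries. Its level was 7.13, 23.2 and 26.8 TPM in *tabri1-a.1bd*, against 13.7, 12.8, 13.5 and 12.6 TPM in *TaBRI1-NS*. Replicates 2 and 3 of *tabri1-a.1bd* lay above all libraries of the other genotypes and replicate 1 below all of them. The log2 change was 0.32 (95% confidence interval -0.26 to 0.90, limma adjusted p = 0.37). It was 0.90 without replicate 1 (SE 0.16, limma adjusted p = 0.0001), 0.08 without replicate 2 and -0.02 without replicate 3 of *tabri1-a.1bd*, so no direction can be given for this genotype.

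*TaFACKEL1-A* had 15.6, 17.4, 20.8 and 17.8 TPM in *tabri1-a.2bd*, all above the *TaBRI1-NS* libraries, as in 10.4% of the genes tested on the higher side. The log2 change was 0.43 (SE 0.26, 95% confidence interval -0.11 to 0.96, limma adjusted p = 0.35). The same change was called without *tabri1-a.1bd* replicate 1 (limma adjusted p = 0.03, 14% of all genes called). It was also called in the fit of the compared genotypes alone (limma adjusted p = 0.033, 7.98% of all genes called). These were the only 2 of 31 refits to call it. *TaFACKEL1-A* ranged from 11.65 to 19.97 TPM in *tabri1-a.3bd*, from 12.7 to 17.1 TPM in *tabri1-bd* and from 13.6 to 16.4 TPM in Cadenza, overlapping *TaBRI1-NS* in each case. Between *tabri1-a.1bd* and *tabri1-a.2bd* its log2 change was -0.11 with all libraries and 0.47 without *tabri1-a.1bd* replicate 1 (limma adjusted p = 0.8 and 0.024).

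*TaFACKEL1-B* was the least abundant of the 6, at 0.879 to 2.36 TPM and 48 to 156 reads per library, for which counting alone gives a relative SD of 8.01 to 14.4%. It had 0.918, 2.30 and 2.31 TPM in *tabri1-a.1bd*, against 1.51, 1.11, 1.28 and 0.920 TPM in *TaBRI1-NS*. The genotypes overlapped through replicate 1 of *tabri1-a.1bd*. The log2 change of 0.40 was not called with it (limma adjusted p = 0.19), and the change of 0.73 without it was (limma adjusted p = 0.016). The *tabri1-a.2bd* libraries, at 1.64, 1.90, 2.02 and 1.91 TPM, all lay above *TaBRI1-NS*, as in 10.4% of the genes tested on the higher side. The log2 change was 0.48 (95% confidence interval 0.01 to 0.95, limma adjusted p = 0.21). The levels of *TaFACKEL1-B* in *tabri1-a.3bd* (0.879 to 2.36 TPM), *tabri1-bd* (1.39 to 1.81 TPM) and Cadenza (1.43 to 2.00 TPM) overlapped *TaBRI1-NS*.

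*TaFACKEL1-D* had the closest genotype means of the 6 genes, between 12.7 and 14.3 TPM. It had 9.62, 17.2 and 15.99 TPM in *tabri1-a.1bd*, against 13.0, 15.6, 11.2 and 13.0 TPM in *TaBRI1-NS*. The genotypes overlapped, with a log2 change of 0.07 (95% confidence interval -0.25 to 0.40, limma adjusted p = 0.73). Without *tabri1-a.1bd* replicate 1 the log2 change of *TaFACKEL1-D* was 0.33 (95% confidence interval 0.05 to 0.60, limma adjusted p = 0.052). None of the *TaFACKEL1* genes varied over the 6 genotypes at the threshold (limma F test, adjusted p = 0.73 for *TaFACKEL1-A*, 0.47 for *TaFACKEL1-B* and 0.98 for *TaFACKEL1-D*).

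*TaFACKEL1-A* and *TaFACKEL1-D* together made up nearly all *TaFACKEL1* transcripts, at 40.3 to 59.4% and 35.5 to 54.5% of the sum over all 23 libraries. *TaFACKEL1-B* supplied 2.93 to 7.60%. The *TaFACKEL1* sum averaged 35.1 ± 15.2 TPM in *tabri1-a.1bd* (SD, n = 3), 33.5 ± 2.64 TPM in *tabri1-a.2bd*, against 27.5 ± 1.59 TPM in *TaBRI1-NS* (SD, n = 4 each). The ratio of *TaFACKEL1-D* to *TaFACKEL1-A* was 0.666 to 0.981 in *tabri1-a.2bd*, against 0.821 to 1.22 in the unmutated libraries (log2 difference -0.28, exact permutation p = 0.048, adjusted p = 0.19). The other 11 *TaFACKEL1* ratio tests had exact permutation p-values of 0.28 or higher.

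For the rest of the sterol route, the 9 homoeologues of *TaHYD1*, *TaDWF5* and *TaDWF1* were taken from the same list of BR pathway genes. All 9 were tested, and 2 were called between *tabri1-a.1bd* and *TaBRI1-NS*, 1 higher and 1 lower, a share below the 43.8% of all genes called. Their median log2 change was 0.00, beside 0.10 over all genes tested. *TaDWF5-A* had 9.576, 6.634 and 7.998 TPM in *tabri1-a.1bd*, against 13.83, 15.96, 17.37 and 13.34 TPM in *TaBRI1-NS*, without overlap, as in 16.9% of the genes tested on the lower side. Its log2 change was -0.87 (SE 0.13, limma adjusted p = 1.1e-05), and -0.997 without *tabri1-a.1bd* replicate 1, in which, unlike *TaDWF7-D*, it had the highest value of the genotype. *TaHYD1-A* had 25.9, 34.6 and 29.8 TPM in *tabri1-a.1bd*, against 22.1, 21.4, 25.5 and 19.5 TPM in *TaBRI1-NS*. These did not overlap either, as in 22.8% of the genes tested on the higher side, with a log2 change of 0.43 (SE 0.12, limma adjusted p = 0.0062). *TaHYD1-A* was not called in the fit of the compared genotypes alone or with array weights, in which *TaDWF5-A* was the only one of the 9 called. Of the 83495 genes tested, these fits called 23336 and 13152.

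None of the 9 genes was called in the other 4 genotypes against *TaBRI1-NS* with all libraries, where 7.46% (*tabri1-a.2bd*), 2.3% (*tabri1-a.3bd*), 0.126% (*tabri1-bd*) and 2.23% (Cadenza) of all genes were called. In limma 1 of the 9 had an unadjusted p under 0.05 in each of the substitution mutants and 0 in *tabri1-bd* and Cadenza, while voom called 0 in each. For *tabri1-a.2bd* the lowest limma adjusted p was 0.14, for *TaDWF5-A* (log2 change -0.30). Without *tabri1-a.1bd* replicate 1, a fit of this list added after seeing the data, all 3 *TaDWF1* homoeologues were called as higher in *tabri1-a.2bd*, by 0.33 (*TaDWF1-A*), 0.58 (*TaDWF1-B*) and 0.34 (*TaDWF1-D*) on the log2 scale, where 14% of all genes were called. *TaDWF1-B* averaged 72.2 ± 1.90 TPM in *tabri1-a.2bd*, against 48.4 ± 3.65 TPM in *TaBRI1-NS* (SD, n = 4 each). In *tabri1-bd* it averaged 61.3 ± 3.28 TPM (SD, n = 4), with a log2 change of 0.34 that was not called in that fit (limma adjusted p = 0.42). In the same fit 1 of the 9 was called in *tabri1-a.3bd* (5.77% of all genes called), *TaDWF1-B*, higher by 0.44, and 4 in *tabri1-a.1bd* (41.3% of all genes called), *TaDWF5-A* lower and *TaHYD1-A*, *TaHYD1-B* and *TaDWF1-A* higher.

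**Figure D5:**
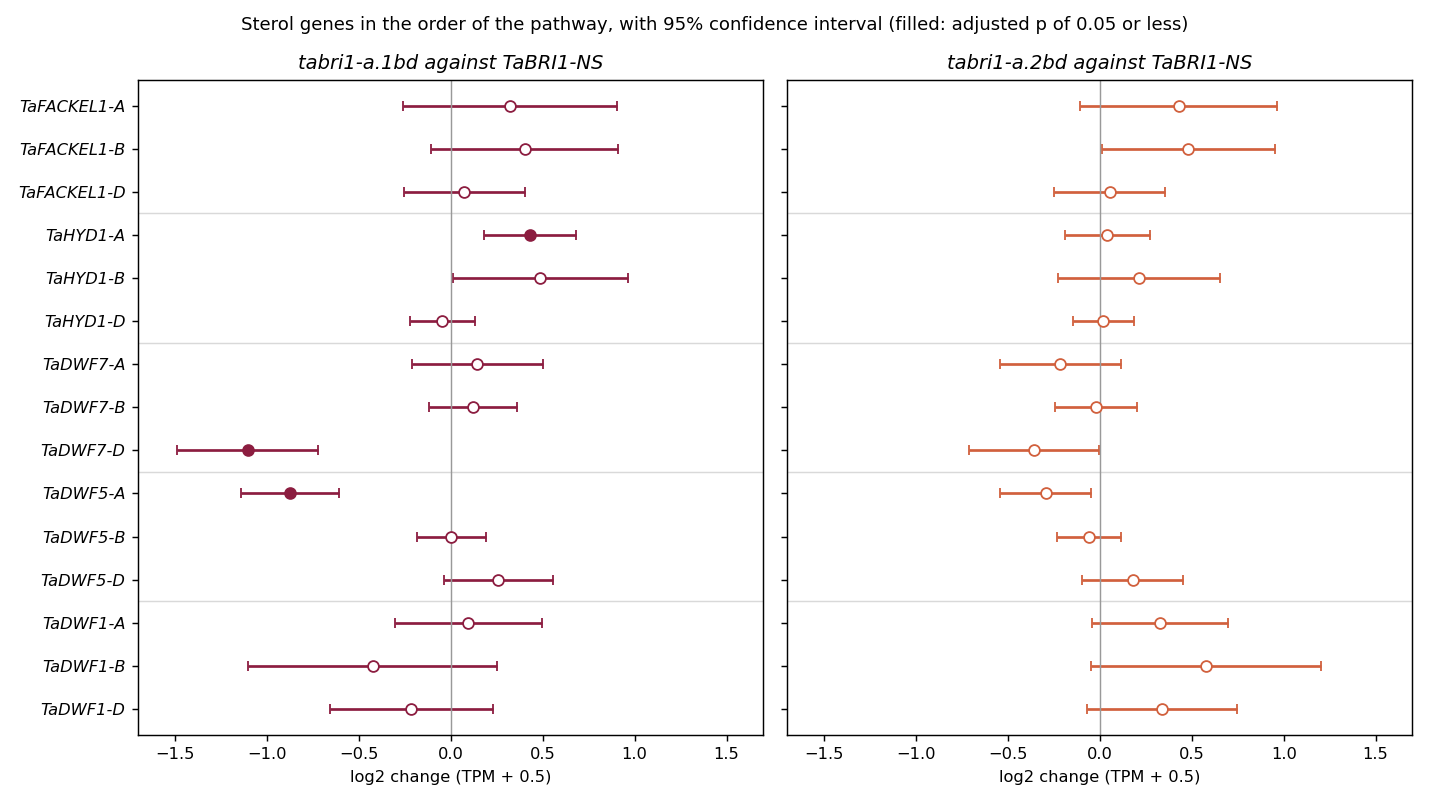
Difference of log2(TPM + 0.5) against *TaBRI1-NS* for the 15 sterol genes (rows, in the order in which the enzymes act) in *tabri1-a.1bd* (left) and *tabri1-a.2bd* (right), with 95% confidence intervals from limma. Filled symbols have an adjusted p of 0.05 or less. In *tabri1-a.1bd* these are *TaHYD1-A* at 0.43, *TaDWF7-D* at -1.10 and *TaDWF5-A* at -0.87.

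The genes beside *TaDWF7-D* were called in both directions. Of the 20 tested genes nearest to it in identifier order, 10 on each side, 8 were called between *tabri1-a.1bd* and *TaBRI1-NS*, 4 higher and 4 lower, with a median log2 change of -0.03 and a range from -1.35 to 1.64. This share is near the 43.8% of all genes tested. In a fit without *tabri1-a.1bd* replicate 1, chosen after the data were seen, 3 of these 20 were called, 2 higher and 1 lower, beside 41.3% of all genes. Between *tabri1-a.2bd* and *TaBRI1-NS* 1 of the 20 was called, beside 7.46% of all genes, and 4 without that library, beside 14% of all genes. Those called were all lower, and the median log2 change of the 20 was 0.03 in either fit. Around the other 5 genes, 10 to 14 of 20 neighbours were called in *tabri1-a.1bd*, and 7 to 14 without replicate 1.

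The likeness of expression patterns was described by Pearson's r of log2(TPM + 0.5) over the 23 libraries, which share the genotypes and the distance of *tabri1-a.1bd* replicate 1. The 3 genes named first in each case are the highest of the 83495 tested, so their r is high in part through that choice. The 3 genes most like *TaDWF7-D* were TraesCS3D03G1090400 (r = 0.969), TraesCS4B03G0304000 (r = 0.966) and TraesCS6B03G1164300 (r = 0.965). Their r over the 20 libraries other than *tabri1-a.1bd* was 0.780, 0.819 and 0.788. TraesCS3D03G1090400 averaged 3.65 ± 3.19 TPM in *tabri1-a.1bd* (SD, n = 3), 12.3 ± 0.873 TPM in *tabri1-a.2bd*, against 24.8 ± 3.12 TPM in *TaBRI1-NS* (SD, n = 4 each). Of the other BR pathway genes, *TaD2-A* (r = 0.914) and *TaDET2-D* (r = 0.889) were most like *TaDWF7-D*, but over the 20 libraries their r was 0.108 and 0.273.

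For *TaFACKEL1-A* the most alike genes were TraesCS2B03G0771200 (r = 0.907), TraesCS2A03G1255500 (r = 0.897) and TraesCS6B03G0424200 (r = 0.895), with r of 0.790, 0.671 and 0.686 over the 20 libraries. Of the BR pathway genes these were *TaBR6ox1-D2* (r = 0.833, and 0.663 over the 20 libraries) and *TaDWF1-A* (r = 0.799 and 0.563). For *TaFACKEL1-B* they were TraesCS5A03G0777400 (r = 0.818), TraesCS3A03G0260900LC (r = 0.817) and TraesCS5D03G0726000LC (r = 0.803), and *TaFACKEL1-A* (r = 0.668) and *TaBZR-B2* (r = 0.615) of the pathway. For *TaFACKEL1-D* they were TraesCS5B03G1001600 (r = 0.836), TraesCS5B03G0411400 (r = 0.796) and TraesCS5B03G0364800LC (r = 0.796), and *TaFACKEL1-A* (r = 0.681) and *TaD11-A* (r = 0.655) of the pathway. The last 2 had r of 0.238 and 0.295 with *TaFACKEL1-D* over the 20 libraries.

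For *TaDWF7-A* the most alike genes were TraesCS7A03G0850400 (r = 0.804), TraesCS2D03G0993500LC (r = 0.795) and TraesCS4B03G0767000 (r = 0.793), and *TaD11-A* (r = 0.567) and *TaD11-D* (r = 0.565) of the pathway. For *TaDWF7-B* they were TraesCS3A03G1149400LC (r = 0.834), TraesCS3A03G0404200LC (r = 0.812) and TraesCS5B03G1226000 (r = 0.798), and *TaD2-D* (r = 0.552) and *TaBIN2-B* (r = 0.542) of the pathway. Over the 20 libraries the pathway genes had r between -0.022 and 0.245 with these homoeologues. Some genes named here lay near the 0.5 TPM added before the log. TraesCS2D03G0993500LC averaged from 0 TPM (*tabri1-a.2bd*) to 0.459 TPM (*tabri1-bd*). TraesCS7A03G0850400 averaged from 0.323 TPM (*tabri1-a.2bd*) to 0.790 TPM (*tabri1-a.1bd*). TraesCS3A03G1149400LC averaged from 0.0494 TPM (*tabri1-bd*) to 1.05 TPM (*tabri1-a.1bd*).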

How the data were processed

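Paired reads were trimmed by the authors with Trimmomatic 0.39, mapped to IWGSC RefSeq v2.1 with STAR 2.7.8a and counted per gene with HTSeq 0.11.3. The deposited values are TPM that the authors computed from these counts, per library and without pooling. Strand setting, treatment of multiply mapped reads and gene lengths are not given in the sources used here. The authors tested genotypes with DESeq2, and those results were not used.

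Whole reads were recovered from the TPM steps for 94749 of 94749 genes above 0 in at least 8 libraries (100%, within 0.05 of a whole number), which gives 22610853 to 38452115 reads per library. Reads are not molecules, so read numbers cover counting error only. The test was limma 3.58.1 in R 4.3.3 (eBayes with trend and robust) on log2(TPM + 0.5) of 83495 of 266760 genes, with a term per genotype and p-values adjusted over all genes tested. The procedure was tested on simulated data. Homoeologue ratios were compared by exact two-sided permutation tests (scipy 1.17.1), adjusted over 24 tests. The fits were repeated with the pseudocount at 0.1 or 1, without the filter, with median-of-ratios size factors, with a fit of the compared genotypes alone, array weights, replicate number as a block, voom on recovered reads, Cadenza as reference and each library left out in turn. The text names all 6 genes, other sterol genes called in any comparison with *TaBRI1-NS*, and per gene the 3 tested genes and the 2 BR pathway genes of highest r. *TaDWF1-A*, *TaDWF1-B*, *TaDWF1-D* and *TaHYD1-B* were named after their values were seen. The genes and lists were chosen with earlier results of these data known. Identifiers of the table matched 0 names in the RefSeq gene table, so tissue markers were not checked.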

Additional observations from a re-analysis of the deposited data

Results flagged for a closer look

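The level of *TaDWF7-D* differed between triple mutants when tested directly, out of 18 such differences looked at. The log2 change was -0.75 for *tabri1-a.1bd* against *tabri1-a.2bd* (39.6% of the genes tested called). It was -1.01 for *tabri1-a.1bd* against *tabri1-a.3bd* (40% of the genes tested called). Both rest in part on *tabri1-a.1bd* replicate 1, in which *TaDWF7-D* had 14.7 TPM. The values without it were -0.35 and -0.61, and both were still called, where 33.9% and 36.4% of the genes tested were called. The call against *tabri1-a.2bd* was lost in a fit of *tabri1-a.1bd* and *tabri1-a.2bd* alone (limma adjusted p = 0.11) and with array weights (limma adjusted p = 0.092). In no group of 4 libraries, of 30 looked at over the 6 genes, did 1 library stand far from the rest by Dixon's test. Groups of 3 libraries were not tested, so this leaves out *tabri1-a.1bd*, whose replicate 1 stands apart.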

How the results depend on the processing

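Leaving out *tabri1-a.1bd* replicate 1 had the widest effect. Over the libraries left out in turn, the number of the 6 genes called was 1 to 5 for *tabri1-a.1bd* against *TaBRI1-NS*, 0 to 2 for *tabri1-a.2bd* against *TaBRI1-NS*, 1 to 4 for *tabri1-a.1bd* against *tabri1-a.2bd*, 1 to 3 for *tabri1-a.1bd* against *tabri1-a.3bd* and 0 to 1 for *tabri1-a.2bd* against *tabri1-a.3bd*. The highest counts came without *tabri1-a.1bd* replicate 1, where 41.3%, 14%, 33.9%, 36.4% and 5.54% of all genes were called, in this order. *TaFACKEL1-A* reversed for *tabri1-a.1bd* against *tabri1-a.2bd*, with log2 changes from -0.45 (without *tabri1-a.1bd* replicate 3) to 0.47 (without replicate 1). In a fit of the compared genotypes alone, 2 genes were called for *tabri1-a.2bd* against *TaBRI1-NS* and 0 for *tabri1-a.1bd* against *tabri1-a.2bd*, and with array weights 1 and 0. Of the 83495 genes tested, the fit of the compared genotypes called 6662 and 18913, and array weights called 12024 and 10800. The unweighted fit of all 23 libraries called 6230 and 33093. *TaDWF7-D* was called lower in *tabri1-a.1bd* than in *TaBRI1-NS* under all 31 refits, with log2 changes from -1.34 to -0.70. Homoeologue ratios passing the adjusted threshold numbered 0 to 3 over the libraries left out, the 3 without *TaBRI1-NS* replicate 3.

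Of the other 9 sterol genes, compared with *TaBRI1-NS*, the fits of the compared genotypes alone called 1 for *tabri1-a.1bd* and called 2 for *tabri1-a.2bd*. Of the 83495 genes tested, these fits called 23336 and 6662. Array weights called 1 for *tabri1-a.1bd*, then 3 for *tabri1-a.2bd*, then 1 for *tabri1-a.3bd*, beside 13152, 12024 and 4152 of all genes tested. The fit without *tabri1-a.1bd* replicate 1, added after seeing the data, called 4 for *tabri1-a.1bd*, then 3 for *tabri1-a.2bd*, then 1 for *tabri1-a.3bd*. It called 41.3%, 14% and 5.77% of all genes. The cause of these shifts was not tested. Replicate numbers did not pair the samples, since deviations of same-numbered libraries correlated at -0.131 to 0.11, and with the replicate block 1 of the 6 genes was called for *tabri1-a.1bd* against *TaBRI1-NS* (*TaDWF7-D*, log2 change -1.11). With the block, 3 of the 9 other sterol genes were called in that comparison, *TaHYD1-B* (log2 change 0.55, limma adjusted p = 0.038) in addition to *TaDWF5-A* and *TaHYD1-A*. The fit with the block called 35703 of the 83495 genes tested there. Of the 1512 refitted changes of single genes, 1495 kept their side of the threshold, with their direction where called. Most were not called with all libraries, and many refits left out a library of another genotype. The count is therefore no measure of how firm the calls are. At 48 to 156 reads per library, *TaFACKEL1-B* is the gene whose precision is most limited by depth.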

Other observations

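The 6 genes did not move as 1 group. Over the 23 libraries the 15 pairwise correlations of log2(TPM + 0.5) lay between -0.012 (*TaDWF7-B* and *TaDWF7-D*) and 0.681 (*TaFACKEL1-A* and *TaFACKEL1-D*). Over the 20 libraries other than *tabri1-a.1bd*, *TaFACKEL1-A* and *TaFACKEL1-D* had r = 0.238, while *TaDWF7-A* and *TaDWF7-D* had r = 0.508 and *TaFACKEL1-A* and *TaDWF7-D* r = -0.514. The points share genotypes and library scaling, so these values are a description.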
